A study of Mus musculus with 12 samples.

Results

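The comparison described here sets 4 S1pr1_KO tumours against 4 WT tumours of the mouse mammary gland, 8 of the 12 RNA libraries in the study. The members were the count columns whose genotype label reads S1pr1_KO or WT, and all genes that passed a filter on low counts entered the test, 30660 of the 56860 genes in the table. All mice carried MMTV-PyMT, a transgene that expresses the polyoma middle T oncogene from the MMTV promoter. S1pr1_KO mice also carried MMTV-Cre and S1pr1fl/fl, a floxed S1pr1 allele on both chromosomes. For the WT mice the design text names MMTV-Cre beside MMTV-PyMT, while their strain label names MMTV-PyMT alone. The 4 C3_KO libraries, from MMTV-Cre mice with the allele C3Tdt and MMTV-PyMT, entered the fit to share its estimate of spread. The genes named were also tested against them, and for some gene lists their values are given beside. Primary tumours were taken at 4.5 months in every strain. The MMTV promoter is active chiefly in the epithelium of the gland, and stroma and vessels of the tumour can retain S1pr1. Activity of Cre in other cells, such as immune cells, was not tested. Each strain came from its own cross with MMTV-PyMT mice, and the labels give no litter, batch or number of mice. All p-values here thus refer to the variation among these libraries, part of which may be technical.

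S1PR1 is a G protein-coupled receptor for sphingosine-1-phosphate (S1P), a lipid that sphingosine kinases make inside cells. S1P is carried out of cells by transporters and broken down by phosphatases and a lyase. The receptor is best known from endothelial cells, where it stabilises the vessel wall, and from lymphocytes, which follow S1P out of lymphoid organs. In tumours it has been studied for its link to STAT3 in both immune and tumour cells.

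S1pr1 itself was examined first, because it checks the genotype labels. The unit of level is CPM, the share of a library's scaled total taken by a gene, times 1e6. The WT libraries, in the order of their replicate numbers 1 to 4, held S1pr1 at 6.87, 8.02, 2.88 and 3.05 CPM. The S1pr1_KO libraries held it at 5.76, 7.43, 2.59 and 2.80 CPM. The groups overlapped almost completely. The log2 fold change, S1pr1_KO minus WT, was -0.17 with an SE of 0.43 and a 95% interval from -1.09 to 0.76, and edgeR's quasi-likelihood test gave an adjusted p of 0.874. The exact two-sided permutation test over the 70 arrangements of the 8 libraries gave p = 0.571, where 0.029 is the smallest p it allows. A loss of the transcript was not detectable in these whole-tumour counts. Counts over the whole gene cannot show whether an exon was lost in the epithelium alone, so they check the labels only in part.

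No other S1P receptor differed beyond the spread either. S1pr4, a receptor known from lymphocytes, stood at 0.701, 0.688, 0.497 and 0.762 CPM in WT and at 4.06, 2.25, 0.790 and 0.453 CPM in S1pr1_KO (log2 fold change 1.51, SE 0.62, edgeR adjusted p = 0.286). S1pr5, known from natural killer cells, stood at 0.0529 to 0.317 CPM in WT and reached 1.58 CPM in S1pr1_KO replicate 1 against 0.0892 to 0.445 CPM in the other replicates (log2 fold change 1.94, SE 0.81, edgeR adjusted p = 0.292). Both were thus high in 1 or 2 S1pr1_KO libraries and near the WT range in the rest. S1pr2 and S1pr3, the receptors of many stromal cells, had log2 fold changes of 0.08 and -0.05 with SEs of 0.30 and 0.35. The enzymes and transporters of S1P gave a median log2 fold change of 0.12 over 19 genes, 11 higher and 8 lower, and one of -0.05 when each library's slope on gene length, described below, was a covariate. Sphk1, a sphingosine kinase, stood at 18.1 to 56.7 CPM in WT against 10.2 to 20.1 CPM in S1pr1_KO (log2 fold change -1.19, SE 0.46, edgeR adjusted p = 0.267). Acer2, a ceramidase of the Golgi that provides sphingosine and was singled out after its values were seen, was lower in every S1pr1_KO library (10.9 to 21.3 CPM) than in any WT library (21.6 to 26.0 CPM), with an edgeR adjusted p of 0.294. Asah2, the neutral ceramidase, stood at 10.5, 11.3, 12.5 and 14.0 CPM in WT and 32.7, 26.0, 9.58 and 27.8 CPM in S1pr1_KO. Its log2 fold change was 0.99 (SE 0.38, edgeR adjusted p = 0.265), and without S1pr1_KO replicate 3 it was 1.3 and passed the test (edgeR adjusted p = 0.0468).

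A list of 15 signalling partners of S1PR1 had a median log2 fold change of 0.06, with 11 genes higher and 4 lower. Cdh5, the cadherin of endothelial junctions, had the smallest p among them, with 37.4, 27.1, 12.2 and 14.8 CPM in WT and 47.2, 37.6, 37.7 and 36.4 CPM in S1pr1_KO (log2 fold change 0.80, SE 0.32, edgeR adjusted p = 0.284). IL-6 and STAT3 genes were split evenly, 10 higher and 10 lower of 20, with a median of -0.04 that was 0.08 with upper-quartile scaling. Il6st, the shared receptor subunit of the IL-6 family, had a log2 fold change of 0.60 (SE 0.23) and Osmr, the oncostatin M receptor, one of 0.64 (SE 0.28), with edgeR adjusted p-values of 0.265 and 0.307. Of 15 inflammasome and interleukin-1 genes 11 were higher and 4 lower (median 0.27, and -0.12 with the length covariate). Pycard, the adaptor of the inflammasome, and Aim2, a sensor of cytosolic DNA, lay on opposite sides at -0.90 (SE 0.37) and 1.19 (SE 0.57), with edgeR adjusted p-values of 0.290 and 0.342. Of the 10 annotated genes on each side of S1pr1 on its chromosome, 9 passed the low-count filter, 8 of them with a higher and 1 with a lower level in S1pr1_KO, and none was called. Among the 9, 2 had an unadjusted p under 0.05, both higher, and 1 did not overlap between the groups. Gm17954, the neighbour without overlap, had an edgeR adjusted p of 0.103. Its levels were very low: WT libraries held 0.0106 to 0.0141 CPM, S1pr1_KO libraries 0.0683 to 0.176 CPM. The median log2 fold change of the 9 was 0.414, and for C3_KO minus WT it was 0.385. The order of these neighbours came from RefSeq on GRCm38.p6, an older build than the authors' own.

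Across all genes, none was called at an adjusted p under 0.05, a background of 0% of 30660 genes. The smallest adjusted p was 0.0536, shared by 15 genes, and 42 genes lay under 0.1. Before adjustment, 4743 genes had a p under 0.05, where 1533 would be expected if no gene differed. These were 7.69% of all genes with a higher and 7.78% with a lower level in S1pr1_KO. The median log2 fold change over all genes was 0.03, and 51.7% of genes had a value above 0. Every S1pr1_KO library lay above every WT library for 2.78% of genes, and below for 4.8%. The counts of gene groups below are read against these shares.

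The genes named next had an average log2 CPM of 0 or more, with predicted genes, pseudogenes and receptor segments left out. Of the 42 genes with an edgeR adjusted p under 0.1, only 6 were of none of these kinds. Among the genes kept, Npw, which encodes neuropeptide W, had the smallest p. Npw stood at 3.69, 1.61, 2.35 and 3.48 CPM in WT and at 0.0819, 0.105, 0.240 and 0.0446 CPM in S1pr1_KO (log2 fold change -4.55, SE 0.65, edgeR adjusted p = 0.0536). The highest S1pr1_KO library was thus below the lowest WT library. Dynlt1b, a light chain of the dynein motor, was at 183, 118, 356 and 188 CPM in WT and 46.9, 44.9, 68.0 and 72.8 CPM in S1pr1_KO (log2 fold change -1.86, SE 0.31, edgeR adjusted p = 0.0610). Its neighbour in sequence Dynlt1c gave -1.39 (SE 0.27, edgeR adjusted p = 0.113), and reads of these near-identical paralogs may be split between them. Glo1, the glyoxalase that removes methylglyoxal, was at 131, 94.3, 158 and 122 CPM in WT and 49.0, 45.2, 57.8 and 61.7 CPM in S1pr1_KO (log2 fold change -1.24, SE 0.21, edgeR adjusted p = 0.0615). Ankrd1, a target of the YAP pathway, was at 6.71, 20, 11.4 and 7.47 CPM in WT and in the narrow range of 1.78 to 2.27 CPM in S1pr1_KO (log2 fold change -2.51, SE 0.45, edgeR adjusted p = 0.0756). Thg1l, which adds a base to histidine tRNA, Hebp1, a heme-binding protein, and Ten1, a protein of telomere replication, lay between -1.17 and -1.32 with edgeR adjusted p-values from 0.103 to 0.146. For each of these 8 genes the groups did not overlap.

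**Figure D1:**
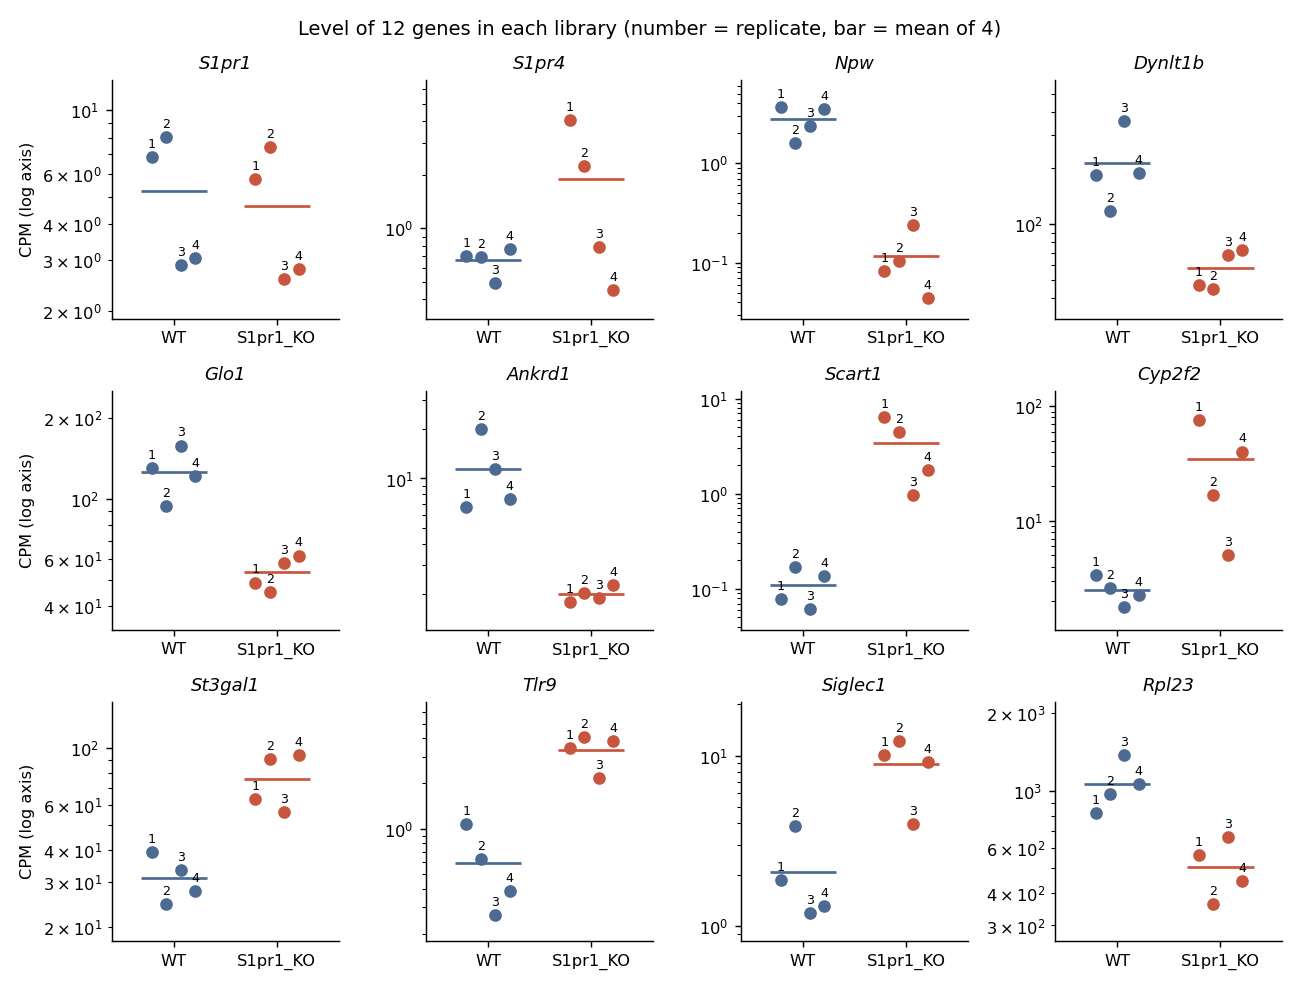
Level of 12 genes in each of the 8 libraries, in CPM on a log axis that differs between panels; points are libraries numbered by replicate and bars are means of 4. S1pr1 overlaps between WT and S1pr1_KO, Npw, Dynlt1b, Glo1, Ankrd1 and Rpl23 lie lower and Scart1, Cyp2f2, St3gal1, Tlr9 and Siglec1 higher in every S1pr1_KO library than in any WT library, and S1pr1_KO replicate 3 is nearest to WT in several panels.

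On the higher side, the gene of smallest p under the same limits was Scart1, a scavenger receptor known from gamma delta T cells. Scart1 stood at 0.0775, 0.168, 0.0608 and 0.137 CPM in WT and 6.37, 4.42, 0.971 and 1.78 CPM in S1pr1_KO (log2 fold change 4.92, SE 0.84, edgeR adjusted p = 0.0615). Cyp2f2, a cytochrome P450 known from the airway, was at 1.76 to 3.40 CPM in WT and 75.4, 17.0, 5.02 and 40.4 CPM in S1pr1_KO (log2 fold change 3.78, SE 0.67, edgeR adjusted p = 0.0756). In both genes replicate 3 was the lowest S1pr1_KO library and still lay above all WT libraries. Cyp2f2 was highest in S1pr1_KO replicates 1 and 4, the libraries in which salivary gland genes, described below, also stood highest. A link between them was not tested. St3gal1, a sialyltransferase that caps O-glycans, was at 39.1, 24.6, 33.3 and 27.7 CPM in WT and 63.4, 90.1, 56.1 and 94.2 CPM in S1pr1_KO (log2 fold change 1.29, SE 0.25, edgeR adjusted p = 0.106). Ahnak2, a giant scaffold protein, was at 23.7 to 35.3 CPM in WT against 49.1 to 61.5 CPM in S1pr1_KO (log2 fold change 0.85, SE 0.17, edgeR adjusted p = 0.114). Tlr9, the sensor of unmethylated DNA in B cells and dendritic cells, was at 0.267 to 1.07 CPM in WT against 2.17 to 4.05 CPM in S1pr1_KO (log2 fold change 2.52, SE 0.53, edgeR adjusted p = 0.145). Cdhr1, a cadherin of photoreceptors, had a log2 fold change of 1.23 (SE 0.26, edgeR adjusted p = 0.151). Teddm2 and the microRNA gene Mir8114 gave 2.52 and 2.63 (SEs 0.54 and 0.56, edgeR adjusted p = 0.149 for both), and whether their reads overlap was not tested. The edgeR test of S1pr1_KO against C3_KO gave an adjusted p of at least 0.994 for each of these 16 genes, and a difference between the knockout strains was not detected for them. In C3_KO minus WT all 16 had the same sign as here, from -3.45 for Npw to 1.91 for Cdhr1. Both comparisons share the WT libraries. Scart1 and Cyp2f2 lay furthest above C3_KO, with log2 fold changes of 3.62 (SE 0.79) and 2.70 (SE 0.64).

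The libraries of 1 genotype were not alike. Total counts, in units of 1e6, ran from 327.1 to 484 in WT and from 230.4 to 380.3 in S1pr1_KO. The first principal component of the 8 libraries took up 39.2% of their variance. It placed S1pr1_KO replicate 3 at -105, between WT replicate 1 at -117 and WT replicate 3 at -70.3, and the other S1pr1_KO libraries at 125, 128 and 82.0. Xist, the noncoding RNA expressed from the inactive X chromosome of female cells, was at 4.38 CPM in S1pr1_KO replicate 3 and at 158 to 1160 CPM in the other 7 libraries. The Y-linked genes Ddx3y and Eif2s3y had a count of 0 in all libraries, and Kdm5d and Uty had at most 4 counts. S1pr1_KO replicate 3 also held skin genes at the highest levels: Krt1, a keratin of the epidermis, at 31.2 CPM against 0.168 to 4.80 CPM in the others, and Krt27, a keratin of the hair follicle, at 39.0 CPM against 0.105 to 2.42 CPM. The summed level of 14 skin and hair markers was 413 CPM in this library and 38.3 to 112 CPM elsewhere. Its part in the results was not tested beyond leaving the library out, and the fit without it is given below where it changed a call or turned the direction of a group.

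**Figure D2:**
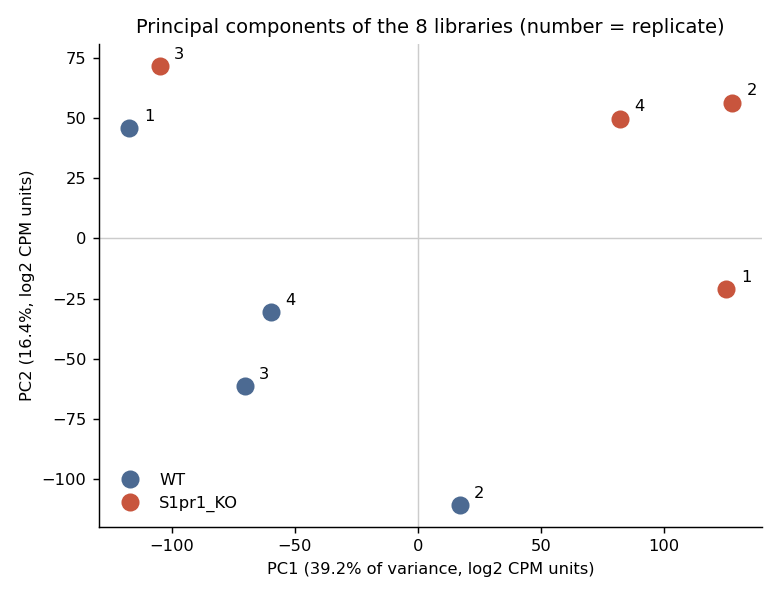
Position of the 8 libraries on the first and second principal components of log2 CPM over all genes tested; points are libraries numbered by replicate. S1pr1_KO replicates 1, 2 and 4 lie on the right, and S1pr1_KO replicate 3 lies on the left beside WT replicate 1.

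Without S1pr1_KO replicate 3, 1330 of 31286 genes were called, 486 higher and 844 lower, a background of 1.55% and 2.7%. Calls of list members in this fit, above and below, are read against these shares. No other library had such an effect, since leaving out any WT library or S1pr1_KO replicate 1 or 4 gave 0 calls and leaving out S1pr1_KO replicate 2 gave 1. All 16 genes of smallest p described above passed in this fit, with adjusted p-values from 0.00383 for Cyp2f2 to 0.0454. They had been picked by their p in the same libraries, so their passing is not independent support. The calls rest on 3 S1pr1_KO libraries, and the library left out was the one that stood apart.

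**Figure D3:**
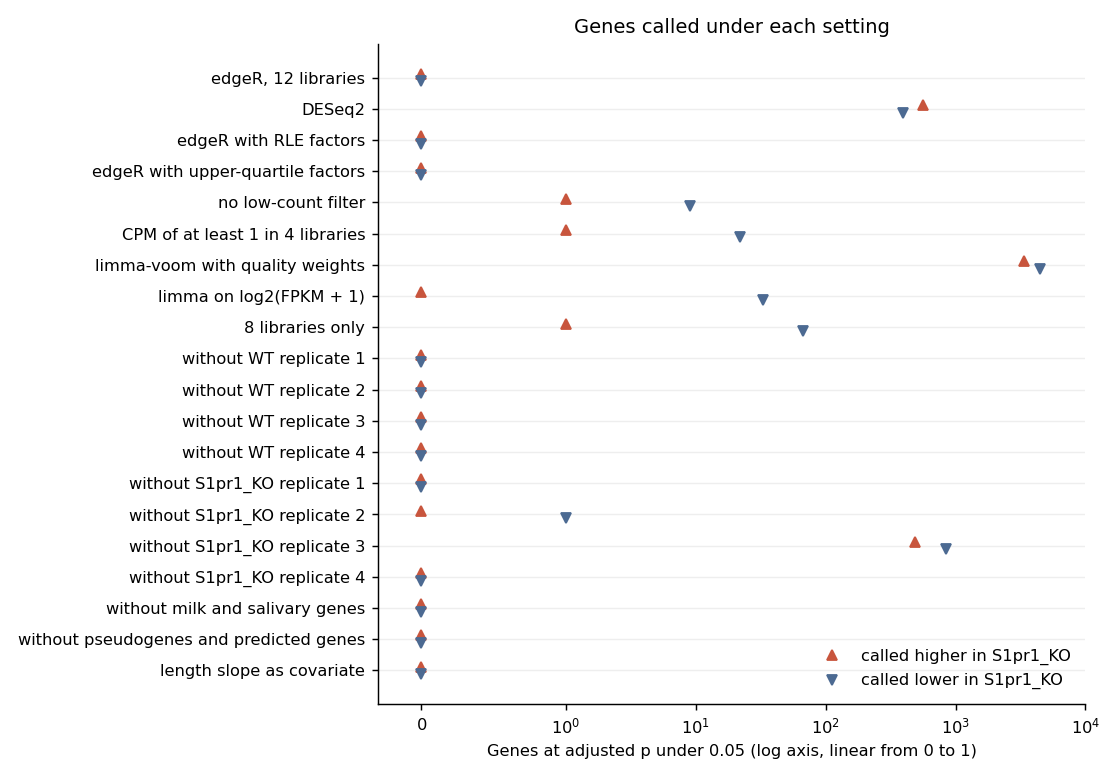
Number of genes at an adjusted p under 0.05 under each setting, on a log axis that is linear from 0 to 1; upward triangles count genes called higher in S1pr1_KO and downward triangles genes called lower. Most settings lie at or near 0, and DESeq2, limma-voom with quality weights and the fit without S1pr1_KO replicate 3 lie far above the rest.

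The scores of 4 lists did not overlap between the groups, S1pr1_KO replicate 3 included: strain-variable genes, ribosome biogenesis, spliceosome and circadian clock. Strain-variable genes are genes known to differ between inbred mouse strains. This list holds Dynlt1b and Glo1, which are among the genes of smallest p above. The lists were chosen with earlier results of these data known, so a score without overlap is not independent support. The list score, the mean log2 CPM of the 11 genes measured, was 4.35, 4.88, 4.6 and 4.95 in WT and 3.82, 3.51, 3.74 and 3.71 in S1pr1_KO. None of the 11 was called, 7 had an unadjusted p under 0.05, and 6 did not overlap between the groups, 2 above and 4 below. Beside Dynlt1b and Glo1, the 4 others were singled out after their values were seen. Gbp2b, an interferon-induced GTPase, stood at 10.2, 17.1, 10.9 and 16.3 CPM in WT and at 0.628, 0.424, 0.0380 and 0.182 CPM in S1pr1_KO (log2 fold change -5.42, SE 1.54, edgeR adjusted p = 0.220). Pttg1, the securin of cell division, had a log2 fold change of -0.91 (SE 0.27, edgeR adjusted p = 0.222). Wdfy1, an endosomal adaptor, gave 1.27 (SE 0.32, edgeR adjusted p = 0.197) and Nnt, the mitochondrial nicotinamide nucleotide transhydrogenase, 0.70 (SE 0.19, edgeR adjusted p = 0.216). Because each strain came from its own cross, an effect of the S1pr1 allele and an effect of other strain differences cannot be told apart in these groups.

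Genes of the ribosome stood on 1 side. All 30 ribosomal protein genes of the list were lower in S1pr1_KO, with a median log2 fold change of -0.79, 15 at an unadjusted p under 0.05, 10 not overlapping and 0 called. The median of the list for C3_KO minus WT was -0.59. Rps24 stood at 945, 1123, 1124 and 1250 CPM in WT and 720, 524, 573 and 556 CPM in S1pr1_KO (log2 fold change -0.90, SE 0.24, edgeR adjusted p = 0.205). Rpl23 stood at 819, 973, 1379 and 1061 CPM in WT and 561, 363, 662 and 446 CPM in S1pr1_KO (log2 fold change -1.06, SE 0.29, edgeR adjusted p = 0.216). Without S1pr1_KO replicate 3 the list had 21 of 30 genes called, all lower, or 70% against the 2.7% of all genes, and its median was -1.17. The summed level of the list was 34300 to 46800 CPM in WT and 21700, 15900 and 17700 CPM in S1pr1_KO replicates 1, 2 and 4, but 43400 CPM in replicate 3. Ribosomal protein genes thus stood at WT levels in that library when summed.

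Other genes of protein synthesis and turnover lay on the same side. Of 20 translation factors 19 were lower (median -0.52), among them Eef1b2, an exchange factor of elongation, at -0.92 (SE 0.28, edgeR adjusted p = 0.228) and Naca, which guards nascent chains, at -0.71 (SE 0.24, edgeR adjusted p = 0.242). Of 20 genes of ribosome biogenesis 19 were lower (median -0.50), and the score of this list was lower in all 4 S1pr1_KO libraries than in any WT library. Its members Npm1, a chaperone of the nucleolus, and Nop56, a protein of the box C/D particles, had values of -0.91 (SE 0.32) and -0.61 (SE 0.24) and did not overlap. All 20 proteasome genes were lower (median -0.55), Psmb6 at -0.89 (SE 0.29) and Psma4 at -0.69 (SE 0.23). Of 20 spliceosome genes 17 were lower (median -0.48), and the Sm proteins Snrpd1 and Snrpe, at -0.88 (SE 0.23) and -0.96 (SE 0.26), did not overlap, nor did the score of their list. The edgeR adjusted p-values of these 6 genes lay from 0.206 to 0.274. Without S1pr1_KO replicate 3, 4 translation factors (20%), 1 biogenesis gene (5%), 3 proteasome genes (15%) and 4 spliceosome genes (20%) were called, all lower. Eef1b2, Psmb6 and Snrpe were among them. Of all genes 2.7% were called lower in this fit, and the 1 biogenesis gene is close to that share.

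Mitochondrial genes followed. All 21 nuclear genes of oxidative phosphorylation were lower (median -0.73, 6 not overlapping), with Ndufa4, a subunit of the respiratory chain, at 135 to 189 CPM in WT against 78.0 to 112 CPM in S1pr1_KO (log2 fold change -0.74, SE 0.22, edgeR adjusted p = 0.223). Uqcr10, of complex III, gave -1.04 (SE 0.33, edgeR adjusted p = 0.235) and was called without S1pr1_KO replicate 3 at -1.27 (edgeR adjusted p = 0.0475). Of 13 genes of the mitochondrial genome 11 were lower (median -0.55), but their groups overlapped. mt-Co2 stood at 2320, 8425, 6650 and 6866 CPM in WT and 5798, 1885, 2524 and 2511 CPM in S1pr1_KO (log2 fold change -0.93, SE 0.48), and mt-Atp6 gave -0.74 (SE 0.47), with edgeR adjusted p-values of 0.364 and 0.462. WT replicate 1 was low and S1pr1_KO replicate 1 high for mt-Co2, so this gene does not follow the order seen for the nuclear genes.

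Levels also moved with gene length, and the lengths of the genes in these groups were not compared with those of other genes. The 15056 genes of at least 1 in average log2 CPM, pseudogenes left out, were put into 5 classes of deposited gene length. Their median log2 fold change was -0.37 in the shortest (median 1337 bases), then -0.21, -0.09 and 0.04, and 0.185 in the longest (median 9580 bases). S1pr1_KO replicates 1, 2 and 4 stood at -0.34, -0.69 and -0.58 relative to the WT mean in the shortest class and at 0.12, 0.37 and 0.33 in the longest. S1pr1_KO replicate 3 went the opposite way, from 0.07 to -0.14, and WT libraries ranged from -0.28 to 0.21 in the shortest class. When each library's slope on gene length entered the fit as a covariate, an alternative chosen after seeing the data, the median of the ribosomal protein list was -0.15, that of nuclear oxidative phosphorylation -0.24 and that of the proteasome -0.15. This slope was computed from the same levels and largely followed the genotype. It was -0.125 to -0.0138 in WT, 0.0439, 0.179 and 0.126 in S1pr1_KO replicates 1, 2 and 4, and -0.102 in replicate 3. The covariate thus takes up part of any difference between the genotypes. Wherever it is used here, an effect of length and one of genotype cannot be told apart. Core histone genes, which are short and whose transcripts mostly lack a poly(A) tail, had 10 of 10 genes lower at a median of -0.77. This median was 0.03 with the length covariate and -1.08 without S1pr1_KO replicate 3. H2bc4, a histone H2B, stood at 178, 91.7, 148 and 182 CPM in WT and 67.1, 56.7, 161 and 58.9 CPM in S1pr1_KO (log2 fold change -0.81, SE 0.36, edgeR adjusted p = 0.310). Without S1pr1_KO replicate 3 it was called at -1.26 (edgeR adjusted p = 0.0454), with H2ac8 and H2bc8, 3 of the 10. What gave the libraries different slopes was not tested.

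**Figure D4:**
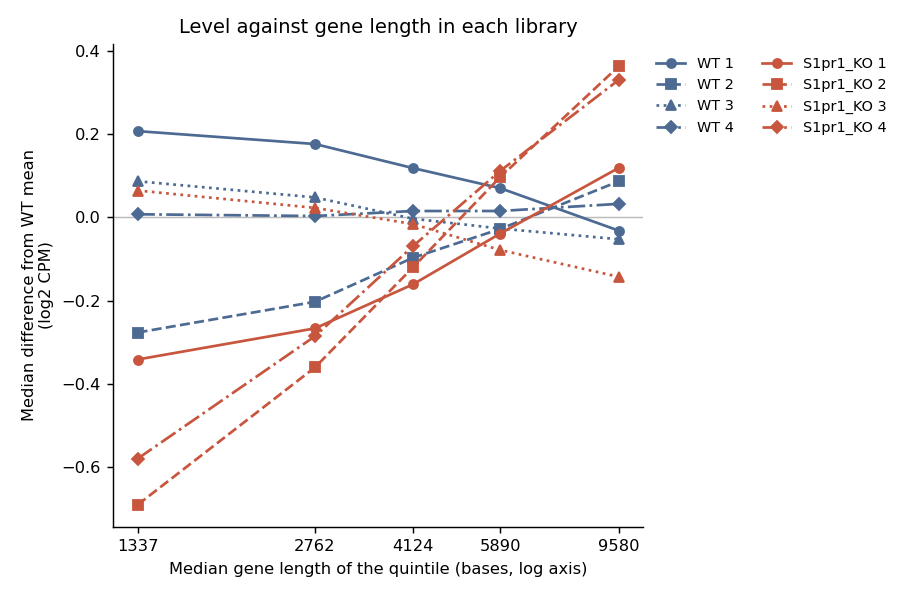
Median difference in log2 CPM from the mean of the WT libraries (for a WT library, from the mean of the other WT libraries), by class of gene length on a log axis; lines are libraries. S1pr1_KO replicates 1, 2 and 4 run upward from -0.69 to -0.34 in the shortest class to 0.12 to 0.37 in the longest, and S1pr1_KO replicate 3 runs slightly downward.

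Pseudogenes were many among the genes of smallest p. They made up 58 of the 100 genes of smallest p and 9.78% of all genes tested. Of the 1472 genes with every S1pr1_KO library below every WT library, 454 or 30.8% were pseudogenes. Copies of ribosomal protein genes were lower in 193 of 199 cases, with a median log2 fold change of -1.05. Pseudogenes took 5.26 to 5.85% of the counts in WT, 3.18, 2.96 and 3.27% in S1pr1_KO replicates 1, 2 and 4, and 4.46% in replicate 3. Whether reads of a parent gene were counted at its copies was not tested.

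Genes of blood vessels were mostly higher in S1pr1_KO. Of 20 markers of blood endothelium 19 were higher and 1 lower, with a median log2 fold change of 0.72, 12 of them at an unadjusted p under 0.05 and 0 called. In bulk tumours, more cells of a type and more RNA per cell cannot be told apart, and this holds for all marker lists here. Pecam1, an adhesion molecule of the vessel wall, stood at 38.0, 36.4, 16.4 and 19.3 CPM in WT and 67.7, 47.0, 34.2 and 34.9 CPM in S1pr1_KO (log2 fold change 0.74, SE 0.31, edgeR adjusted p = 0.288). Mmrn2, a matrix protein of endothelium, was the member whose groups did not overlap, at 4.49 to 9.39 CPM against 10.5 to 16.9 CPM (log2 fold change 0.93, SE 0.29, edgeR adjusted p = 0.234). Replicates 3 and 4 were the low libraries of either group for both genes, as they were for S1pr1. Ptprb, a phosphatase of endothelial junctions, gave 1.24 (SE 0.39, edgeR adjusted p = 0.234), and without S1pr1_KO replicate 3 it was called at 1.56 together with Kdr, Tek and Adgrl4, 4 of 20. Of 10 lymphatic markers 7 were higher (median 0.47, and -0.05 with the length covariate). Prox1 and Lyve1, the first 2 members of the list, did not differ beyond the spread. They gave -0.02 (SE 0.47) and 0.37 (SE 0.67), with edgeR adjusted p-values of 0.988 and 0.814. The members of smallest p were Stab2, a hyaluronan receptor, at 2.25 (SE 0.84, edgeR adjusted p = 0.260) and Flt4, a receptor of lymphatic growth factors, at 0.57 (SE 0.32). Stab2 was at 1.52 and 1.56 CPM in S1pr1_KO replicates 1 and 2 and at 0.123 and 0.197 CPM in replicates 3 and 4. WT libraries held Stab2 at 0.0634 to 0.339 CPM. Pericyte and smooth muscle markers were mixed, 7 higher and 5 lower (median 0.23), with Mcam at 0.66 (SE 0.29) and Notch3 at 0.49 (SE 0.26).

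Genes of fibroblasts and matrix were all on the higher side, 20 of 20 with a median of 0.85, 7 at an unadjusted p under 0.05 and 0 called. The median of the list for C3_KO minus WT was 0.62. Col6a1, a chain of collagen VI, stood at 123, 137, 85.6 and 70.4 CPM in WT and 194, 262, 152 and 178 CPM in S1pr1_KO (log2 fold change 0.92, SE 0.28, edgeR adjusted p = 0.229). Fbn1, the fibrillin of elastic microfibrils, gave 1.24 (SE 0.35, edgeR adjusted p = 0.216) and was called without S1pr1_KO replicate 3 at 1.47, with Col5a2, Col6a3 and Pdgfra. Col1a1, the main chain of collagen I, was less apart at 0.34 (SE 0.37), since WT replicate 2 held the highest level of all 8 libraries, 1257 CPM. With the length covariate the median of the list was 0.26. Genes of epithelial-mesenchymal transition had a median of 0.02, with 11 higher and 7 lower of 18, and medians of -0.03 to -0.07 without S1pr1_KO replicate 2 or WT replicate 3. The transcription factors Zeb1 and Zeb2 lay at 1.00 (SE 0.39) and 0.91 (SE 0.40), with edgeR adjusted p-values of 0.273 and 0.300. Among 20 matrix proteases and inhibitors 11 were higher and 9 lower (median 0.16, and -0.01 without S1pr1_KO replicate 1). Timp1, an inhibitor of metalloproteases, stood at 14.7 to 46.5 CPM in WT against 8.98 to 16.4 CPM in S1pr1_KO (log2 fold change -1.21, SE 0.38, edgeR adjusted p = 0.234), and Mmp14, a membrane metalloprotease, gave -0.62 (SE 0.30).

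Markers of B cells were high in 2 of the 4 S1pr1_KO libraries. The score of the list was 0.18 to 0.85 in WT, 4.12 and 3.19 in S1pr1_KO replicates 1 and 2, and 0.22 and 0.44 in replicates 3 and 4. Of its 20 genes 19 were higher, with a median of 2.92 and 12 at an unadjusted p under 0.05; on log2(FPKM + 1), which understates low genes, the median was 0.74. Ms4a1, which encodes CD20, stood at 0.0423 to 0.605 CPM in WT and at 13.4, 8.54, 0.0234 and 0.0818 CPM in S1pr1_KO (log2 fold change 4.65, SE 1.70, edgeR adjusted p = 0.255). Blk, a kinase of B cells, was the 1 member with no overlap, at 0.0974 to 0.254 CPM in WT against 0.316 to 8.62 CPM in S1pr1_KO (log2 fold change 4.14, SE 0.99, edgeR adjusted p = 0.189). Without S1pr1_KO replicate 3, 5 of the 20 were called higher, Blk and the inhibitory receptor Cd22 among them.

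The same 2 libraries held Fcer2a and Cr2, from a list of high endothelial venule and lymph node stroma genes, at high levels. Fcer2a and Cr2, which encode CD23 and complement receptor 2 of B cells and follicular dendritic cells, stood at 0.0399 to 0.227 CPM in WT, at 12.9 and 8.14 CPM and at 12.8 and 6.68 CPM in S1pr1_KO replicates 1 and 2, and at 0.0497 to 0.141 CPM in replicates 3 and 4. Their log2 fold changes were 5.40 (SE 1.46) and 5.54 (SE 1.80), with edgeR adjusted p-values of 0.215 and 0.241. The list of 11 genes had a median of 1.48, 9 higher and 2 lower. Fcer2a was called at 5.85 (edgeR adjusted p = 0.0454) in the fit without S1pr1_KO replicate 3, as was Enpp2, which encodes autotaxin. H2-Ob, a class II gene of B cells, followed at 22.6 and 14.2 CPM against 0.568 to 1.18 CPM in the other 6 libraries (log2 fold change 3.48, SE 1.02, edgeR adjusted p = 0.222), and it was called at 3.91 without S1pr1_KO replicate 3 (edgeR adjusted p = 0.0454). The part of lymphoid tissue within these samples was not tested.

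T cell genes had a median log2 fold change of 1.09, with 20 of 22 higher, and one of 0.24 on log2(FPKM + 1). Cd3e, a chain of the T cell receptor complex, did not differ beyond the spread, at 0.745 to 2.15 CPM in WT and 4.68, 1.65, 1.76 and 0.895 CPM in S1pr1_KO (log2 fold change 0.74, SE 0.61, edgeR adjusted p = 0.569). Cd247, the zeta chain of the same complex, gave 1.06 (SE 0.32, edgeR adjusted p = 0.228) and was called without S1pr1_KO replicate 3 at 1.33 (edgeR adjusted p = 0.0454). Of 16 genes of NK and cytotoxic cells 14 were higher (median 0.83), and their highest scores, 0.88 and 0.28, were again in S1pr1_KO replicates 1 and 2. Of 14 dendritic cell genes 10 were higher (median 0.53). Ccl22, a chemokine of mature dendritic cells, stood at 10.6 CPM in S1pr1_KO replicate 1 and at 0.618 to 1.43 CPM in WT (log2 fold change 2.15, SE 0.71), Cd209a gave 1.75 (SE 0.58) and Flt3, the growth factor receptor of this lineage, 1.55 (SE 0.55), with edgeR adjusted p-values of 0.241 to 0.249. Cd209a, a lectin of dendritic cells, was called at 2.1 without S1pr1_KO replicate 3 (edgeR adjusted p = 0.0484).

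The macrophage list had scores of 2.92 to 3.83 in WT, of 4.59 and 4.36 in S1pr1_KO replicates 1 and 2, and of 3.19 and 3.81 in replicates 3 and 4. Siglec1, the sialic acid receptor CD169 of tissue macrophages, stood at 1.87, 3.89, 1.20 and 1.31 CPM in WT and 10.1, 12.2, 3.96 and 9.22 CPM in S1pr1_KO (log2 fold change 2.10, SE 0.50, edgeR adjusted p = 0.189). Csf1r, the receptor that macrophages need to survive, was at 42.0 to 60.8 CPM in WT against 66.2 to 76.2 CPM in S1pr1_KO (log2 fold change 0.45, SE 0.22, edgeR adjusted p = 0.344). Neither gene overlapped between the groups, and the list of 20 had 15 higher and 5 lower with a median of 0.45. Adgre1, which encodes F4/80, gave 1.24 (SE 0.38, edgeR adjusted p = 0.233), and it and Siglec1 were called without S1pr1_KO replicate 3. Complement genes, many of them products of macrophages and stroma, were higher in 22 of 29 cases (median 0.56). Itgam, the complement receptor chain CD11b, stood at 5.81 to 10.3 CPM in WT and at 16.3, 17.0, 6.02 and 18.4 CPM in S1pr1_KO (log2 fold change 0.98, SE 0.35, edgeR adjusted p = 0.247), and without S1pr1_KO replicate 3 it was called at 1.28 (edgeR adjusted p = 0.0454). With the length covariate the median of the complement list was 0.14. Neutrophil genes had 8 of 12 higher (median 0.30), mast cell genes 8 of 9 (median 1.11), chemokines 13 of 25 (median 0.06) and interferon response genes 12 of 18 (median 0.12). The mast cell median was -0.18 with the length covariate and 2.55 without WT replicate 2. The chemokine median was -0.13 without WT replicate 3, and the interferon median -0.06 without S1pr1_KO replicate 3. All 10 class II genes were higher (median 0.34), Ciita, the master regulator of the class, at 0.56 (SE 0.24). Class I genes were lower in 11 of 14 cases (median -0.28), with Psmb8, a subunit of the immunoproteasome, at -0.86 (SE 0.42).

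Fat genes followed the lymphoid genes in part. All 18 adipocyte genes were higher, with a median of 2.43, 8 at an unadjusted p under 0.05 and 0 called. The median was 1.34 with the length covariate and 4 without WT replicate 2. Adipoq, which encodes adiponectin, stood at 0.303, 11.4, 1.06 and 0.529 CPM in WT and 52.7, 50, 1.03 and 5.29 CPM in S1pr1_KO (log2 fold change 3.03, SE 1.40, edgeR adjusted p = 0.325). Adrb3, the beta-3 adrenergic receptor of fat cells, stood at 12.6, 12.4, 0.216 and 1.3 CPM in S1pr1_KO and at 0.0458 to 1.22 CPM in WT (log2 fold change 3.94, SE 1.22, edgeR adjusted p = 0.234). Adrb3 was called at 4.39 (edgeR adjusted p = 0.0475) when S1pr1_KO replicate 3 was left out, as was Pparg, the master regulator of fat cells. S1pr1_KO replicates 1 and 2 were again the high libraries, and WT replicate 2 was the highest of its group. Lep, which encodes leptin, gave 1.72 (SE 1.08). Ucp1, the uncoupling protein of brown fat, was at 48.3 CPM in S1pr1_KO replicate 1 and at 0.0159 to 0.137 CPM in the other 7 libraries, so its log2 fold change of 7.45 (SE 2.27) rests on that library.

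Genes of fatty acid and triglyceride synthesis, which both fat and mammary epithelium use, were higher in 12 of 18 cases (median 0.46). Scd1, the stearoyl-CoA desaturase, stood at 570, 375, 263 and 430 CPM in WT and 1183, 1117, 1041 and 360 CPM in S1pr1_KO (log2 fold change 1.18, SE 0.41, edgeR adjusted p = 0.242). Dgat2, which completes triglycerides, gave 1.42 (SE 0.49) with its high values in S1pr1_KO replicates 1 and 2, and Lpin1, a phosphatidate phosphatase singled out after its values were seen, was at 28.1 to 40.0 CPM in WT against 43.7 to 58.9 CPM in S1pr1_KO (log2 fold change 0.49, SE 0.18, edgeR adjusted p = 0.262). Cholesterol synthesis genes were lower in 12 of 18 cases (median -0.13, and 0.22 with the length covariate).

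Salivary gland genes stood far above WT in S1pr1_KO replicates 1 and 4. Amy1, the amylase of saliva, was at 6.73 to 35.4 CPM in WT and at 28670, 47.0, 10.5 and 1161 CPM in S1pr1_KO (log2 fold change 8.87, SE 2.21, edgeR adjusted p = 0.204). Prb1, a proline-rich protein of saliva, was at 0.0155 to 0.208 CPM in WT and at 730, 0.430, 0.129 and 11.0 CPM in S1pr1_KO (log2 fold change 11.41, SE 2.98, edgeR adjusted p = 0.213). With S1pr1_KO replicate 3 left out, Amy1 was called at 9.32 (edgeR adjusted p = 0.0454) and Prb1 at 11.9 (edgeR adjusted p = 0.0475), with Muc19 and Cst10, 4 of 15. The 15 markers summed to 195000 CPM in S1pr1_KO replicate 1, to 12000 CPM in replicate 4 and to 807 to 1960 CPM in the other 6 libraries. Muscle genes were high in WT replicate 2 and S1pr1_KO replicate 1, with Acta1, the actin of skeletal muscle, at 750 and 374 CPM there and at 0.412 to 12.3 CPM elsewhere. Of 15 muscle genes 14 were lower in S1pr1_KO (median -1.02), and without WT replicate 2 the median turned to 3.54. The skin and hair list, with a median of 1.22, turned to -1.48 without S1pr1_KO replicate 3. The part of neighbouring tissue in these samples was not tested, but the results for salivary, muscle and skin genes rest on the libraries named.

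**Figure D5:**
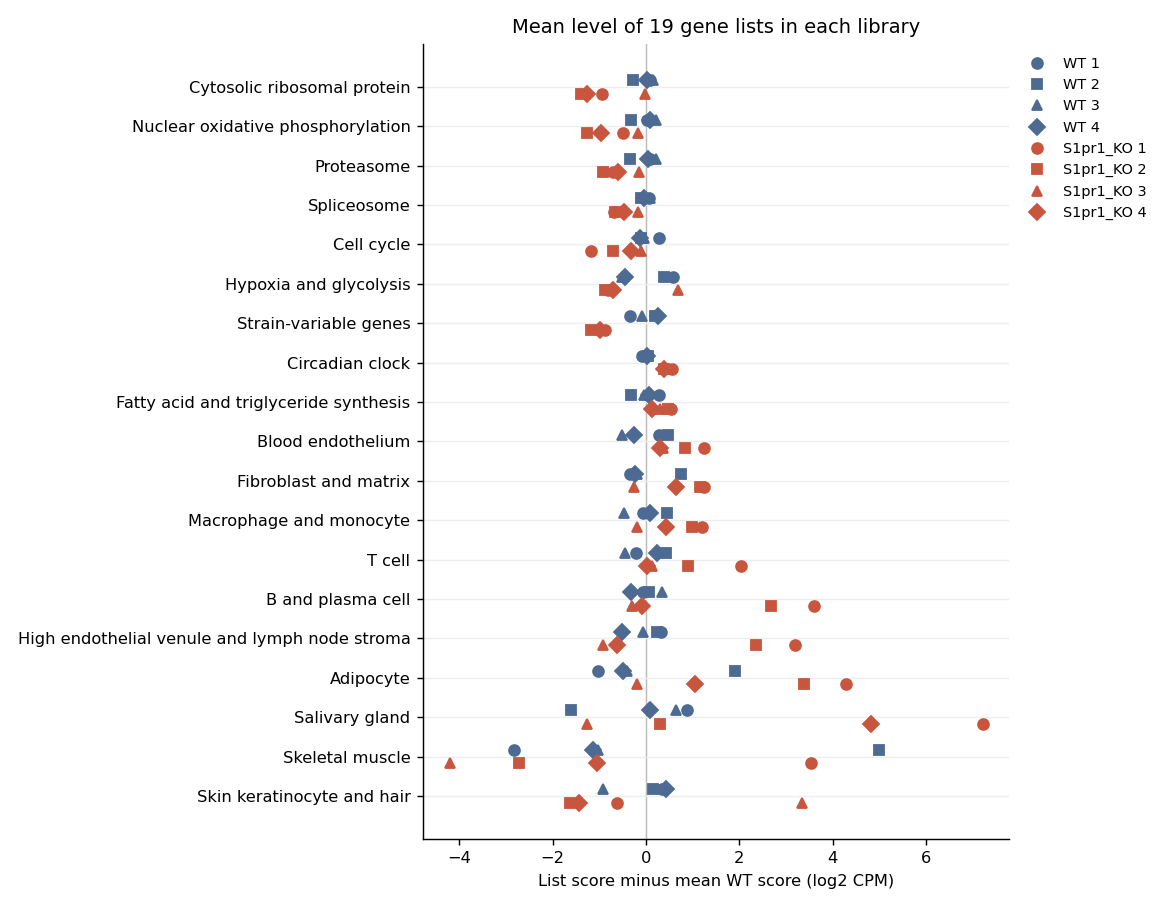
Score of 19 gene lists in each library, as the difference in mean log2 CPM from the mean WT score; symbols are libraries. Ribosomal, mitochondrial and proteasome lists lie low in S1pr1_KO replicates 1, 2 and 4, the strain-variable list lies low and the clock list high in all 4 S1pr1_KO libraries, and B cell, adipocyte, salivary, muscle and skin lists are carried by 1 or 2 libraries.

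Lists of the epithelial compartment, where the MMTV promoter is chiefly active, had medians near 0. Luminal markers had a median of -0.03, with 7 higher and 8 lower of 15, and basal markers one of -0.10 with 4 higher and 9 lower of 13; with upper-quartile scaling these medians were 0.10 and 0.03. Krt8, a keratin of luminal cells, stood at 2117, 871, 1172 and 1296 CPM in WT and 526, 639, 1483 and 694 CPM in S1pr1_KO (log2 fold change -0.71, SE 0.43, edgeR adjusted p = 0.439). The keratin was thus below WT in S1pr1_KO replicates 1, 2 and 4 and within WT in replicate 3. Pgr, the progesterone receptor, was at 2.08 to 5.16 CPM in WT and at 11.9, 29.6, 11.4 and 2.16 CPM in S1pr1_KO (log2 fold change 1.75, SE 0.71, edgeR adjusted p = 0.280). Milk genes were split, 7 higher and 10 lower of 17 (median -0.20, and 0.07 with limma-voom), with Mfge8, the milk fat globule protein, at -0.96 (SE 0.45). Effectors of the middle T oncogene had a median of -0.21, with 10 of 15 lower. Grb2, an adaptor of the Ras pathway, gave -0.63 (SE 0.22) and Plcg1, a phospholipase that binds middle T, 0.45 (SE 0.22), with edgeR adjusted p-values of 0.248 and 0.338.

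Cell cycle genes were lower throughout, 31 of 31 with a median of -0.47, 4 at an unadjusted p under 0.05, 3 not overlapping and 0 called. Birc5, the survivin of dividing cells, stood at 62.1, 119, 63.8 and 48.5 CPM in WT and 15.6, 17.9, 37.0 and 26.5 CPM in S1pr1_KO (log2 fold change -1.60, SE 0.41, edgeR adjusted p = 0.204). Tyms, thymidylate synthase, stood at 34.3 to 44.0 CPM in WT against 18.7 to 31.1 CPM in S1pr1_KO (log2 fold change -0.77, SE 0.23, edgeR adjusted p = 0.228). Both were called without S1pr1_KO replicate 3, the only 2 of the list, or 6.45% against the 2.7% of all genes called lower. With the length covariate the median was -0.12. Hypoxia and glycolysis genes were lower in 13 of 16 cases, with a median of -0.34 that was -1.05 without S1pr1_KO replicate 3 and 0.02 with the length covariate. Replicate 3 again differed, with a list score of 7.21 against 5.64 to 5.80 in the other S1pr1_KO libraries. Gapdh, a glycolytic enzyme, gave -0.89 (SE 0.44) and Car9, a carbonic anhydrase induced by hypoxia, -0.96 (SE 0.72).

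Of 10 heat shock genes 9 were lower (median -0.33), and Hsp90aa1, the inducible HSP90, did not overlap at 443 to 819 CPM in WT against 338 to 409 CPM in S1pr1_KO (log2 fold change -0.77, SE 0.26, edgeR adjusted p = 0.241). Hspe1, the mitochondrial chaperonin HSP10, gave -0.92 (SE 0.30, edgeR adjusted p = 0.237) and was called at -1.23 without S1pr1_KO replicate 3 (edgeR adjusted p = 0.0454). Unfolded protein response genes were lower in 11 of 16 cases (median -0.23, and 0.14 with the length covariate), with no overlap for Dnajb9, a chaperone of the endoplasmic reticulum, at 0.56 (SE 0.24) and for Ddit3, which encodes CHOP, at -0.53 (SE 0.24). Immediate early genes were split 9 and 9 (median -0.03, and 0.09 with upper-quartile scaling). Among 11 glucocorticoid response genes 6 were higher (median 0.20, and -0.05 with limma-voom), and Mt1, a metallothionein, was called lower without S1pr1_KO replicate 3. The member of smallest p was Zbtb16, a transcription factor, which stood at 2.72 to 6.57 CPM in WT and 10.3, 44.5, 9.65 and 6.37 CPM in S1pr1_KO (log2 fold change 2.10, SE 0.66, edgeR adjusted p = 0.234). Of 18 xenobiotic and glutathione enzymes 11 were lower (median -0.11, and 0.02 with upper-quartile scaling), and Gstt1, a glutathione transferase, did not overlap at 21.4 to 36.3 against 11.8 to 20.9 CPM (log2 fold change -0.78, SE 0.26, edgeR adjusted p = 0.241). Nuclear-retained long noncoding RNAs were higher in 6 of 10 cases (median 0.52, and -0.34 with the length covariate), with Neat1, the scaffold of paraspeckles, at 1.00 (SE 0.49).

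The circadian clock was the list whose score was higher in every S1pr1_KO library than in any WT library. The clock is a loop in which CLOCK and BMAL1 switch on genes through E-boxes and the Per and Cry proteins they induce shut them off. A second arm works through D-boxes, which DBP and TEF bind. The score was 4.36 to 4.50 in WT and 5.01, 4.82, 4.87 and 4.83 in S1pr1_KO. Of 18 genes 16 were higher, with a median of 0.31, 3 at an unadjusted p under 0.05, 2 not overlapping and 0 called. The C3_KO libraries scored 4.87, 4.44, 4.585 and 4.83, and the median for C3_KO minus WT was 0.34. The higher level of the list was thus not particular to S1pr1_KO. Nr1d2, a repressor of the loop, stood at 23.2, 40.7, 22.5 and 29.9 CPM in WT and 91.0, 73.5, 29.7 and 55.6 CPM in S1pr1_KO (log2 fold change 1.10, SE 0.32, edgeR adjusted p = 0.222). Per3 stood at 11.3, 25.2, 17.1 and 21.0 CPM in WT and 63.3, 49.0, 23.2 and 39.7 CPM in S1pr1_KO (log2 fold change 1.23, SE 0.41, edgeR adjusted p = 0.241). For both genes the lowest S1pr1_KO library, replicate 3, lay below the highest WT library, and without it Nr1d2 was called at 1.38 (edgeR adjusted p = 0.0454). Per2, Dbp and Cry2, singled out after their values were seen, had log2 fold changes of 1.45 (SE 0.50), 1.36 (SE 0.64) and 0.29 (SE 0.19). Dbp was at 19 to 21.0 CPM in WT and 105, 22.8, 53.2 and 25.4 CPM in S1pr1_KO. The activators Clock and Arntl, which encodes BMAL1, overlapped, at 27.1 to 46.6 and 3.95 to 10.6 CPM in WT and 24.5 to 61.7 and 6.79 to 8.84 CPM in S1pr1_KO. The labels give the age of the mice and no hour of collection, and the part of the hour was not tested.

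Promoter windows of 4 clock genes are shown because most members of the list were on the higher side. They come from the RefSeq promoter table on GRCm38.p6, which held entries for 15 of the clock genes listed. Each line gives the gene, and the sequence runs 5′ to 3′ on the gene's strand, with the motif in capitals: an E-box, CACGTG, which reads the same on both strands, or a D-box, TTATGTAA.
Per1: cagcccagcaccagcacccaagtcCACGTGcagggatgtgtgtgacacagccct
Tef: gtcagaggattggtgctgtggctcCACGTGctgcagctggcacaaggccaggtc
Ciart: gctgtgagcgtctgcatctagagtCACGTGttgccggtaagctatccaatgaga
Per3: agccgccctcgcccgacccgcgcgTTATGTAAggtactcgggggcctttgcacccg
These windows lie at chr11:69098759-69098812 (plus strand), chr15:81802522-81802575 (plus strand), chr3:95882315-95882368 (minus strand) and chr4:151044839-151044894 (minus strand). CACGTG was found in the promoters of 5 of these 15 clock genes, of which the windows of Cry1 and Bhlhe41 are not shown. Of all 32851 promoter entries, which cover 27025 symbols, 7.15% held it. TTATGTAA on either strand was found in 1 clock gene and in 0.938% of entries. A gene can have more than 1 entry, so counts of genes and shares of entries are unlike measures. A match is a description of the letters and not a bound site. Of the 4 genes, Per3 was described above, Tef stood at 48.5 to 81.3 CPM in WT and 135, 110, 78.9 and 116 CPM in S1pr1_KO, and Tef, Per1 and Ciart overlapped between the groups. Ciart was at 2.62 to 4.36 CPM in WT and at 7.24 and 6.84 CPM in S1pr1_KO replicates 1 and 3 but 2.92 and 2.95 CPM in replicates 2 and 4.

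The remaining lists added single values. Of 12 markers of nerve 7 were higher (median 0.11, and -0.03 with limma-voom). Of 8 red blood cell genes 7 were lower, with a median of -0.36 that was 0.41 without WT replicate 1 and 0.55 with the length covariate. Hba-a1, a globin gene, ranged from 37.1 to 278 CPM in WT and from 18.3 to 124 CPM in S1pr1_KO. Among 7 markers of thyroid, lung, kidney and liver, Cyp2f2 and Tg did not overlap, Tg, the thyroglobulin, at 0.0987 to 0.306 CPM in WT against 0.316 to 0.495 CPM in S1pr1_KO (log2 fold change 1.27, SE 0.56, edgeR adjusted p = 0.305). Sftpc, a surfactant protein of the lung, stood at 0.0502 to 1.04 CPM in WT against 0.0520 to 1.24 CPM in S1pr1_KO, far below the 75.4 CPM that Cyp2f2 reached in S1pr1_KO replicate 1.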

How the data were processed

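RNA of 12 primary mouse mammary tumours was sequenced, 4 for each of 3 genotypes taken from the genotype label; replicate numbers follow accession order and only name libraries. The authors deposited raw gene counts as whole numbers, and FPKM values that equal the count divided by gene length and library total within a relative tolerance of 1e-04 for 682317 of 682320 values. Both deposited tables also hold a gene length in bases, an other kind of value. Per the submitters' processing notes, StringTie and GRCm39 (mm39) were named without version or role; the aligner and the handling of strand and of multiply matching reads: not given in the sources used here. RNA was kept in RNAlater and extracted with QIAzol, per the labels' protocols. No column of values was left unused (0).

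Counts were filtered by edgeR's filterByExpr, scaled by TMM and tested with edgeR 4.0.16 in R 4.3.3 (quasi-likelihood F-test, robust spread, 12 libraries, 9 residual degrees of freedom, common biological coefficient of variation 0.564). P-values were adjusted by Benjamini-Hochberg over all 30660 genes tested, and an adjusted p under 0.05 was called. The SE was derived from the fold change and F, and scores use log2 CPM with a prior count of 2. The scripts were tested on simulated counts. Alternatives used DESeq2 1.42.0 and limma 3.58.1.

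The 56 gene lists hold 890 genes, 862 of them tested; members, lists and tests were chosen with earlier results of these data known. Named by rule were the S1P receptors, the 8 genes of smallest p in each direction whose average log2 CPM was 0 or more (predicted genes, pseudogenes and receptor segments left out) and, per list, the 2 members of smallest p, with the first 2 members of cell type lists. Genes outside this rule, given mostly by their levels (such as Krt1, Krt27, Acta1, Hba-a1, Sftpc, Clock and Arntl) or as called without S1pr1_KO replicate 3, were chosen after their values were seen. Gene names were used as deposited; 37506 matched RefSeq symbols. A few genes that the rule selects are not reported here.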

Additional observations from a re-analysis of the deposited data

Results flagged for a closer look

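A library was looked at again where the gap between it and the nearest of the other 3 libraries of its genotype exceeded Dixon's 95% critical share of the whole range on the log2 scale. Over 332 groups of 4, 19 met this, and chance flags about 1 in 20 groups.

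S1pr1_KO replicate 3 was the library set apart most often, 7 times. It was the lowest of its genotype for Xist at 4.38 CPM (the other 3 from 557 to 1160), for Itgam at 6.02 CPM (16.3 to 18.4), for Cd247 at 3.89 CPM (8.37 to 9.63) and for Col1a1 at 774 CPM (887 to 911), and in the score of nuclear-retained long noncoding RNAs at 4.40 (5.78 to 6.06). It was the highest for H2bc4 at 161 CPM (56.7 to 67.1) and in the score of hypoxia and glycolysis at 7.21 (5.64 to 5.80). Xist was screened in addition to the 110 genes counted below. Its low level in this library was described above, so its flag is not independent support.

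S1pr1_KO replicate 1 was the highest for Ucp1 at 48.3 CPM (0.0702 to 0.127) and for Cdh5 at 47.3 CPM (36.4 to 37.7), and S1pr1_KO replicate 4 was the lowest for Scd1 at 360 CPM (1040 to 1180).

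Among WT libraries, replicate 2 was the highest for Zeb2 at 20.3 CPM (9.53 to 10.2) and in the scores of fibroblasts and matrix at 6.69 (5.60 to 5.76), of S1P metabolism and transport at 4.27 (4.23 in the 3 others) and of neutrophils at -0.00879 (-0.841 to -0.719). WT replicate 3 was the lowest for Pgr at 2.08 CPM (4.49 to 5.16) and in the scores of pericytes and smooth muscle at 5.05 (5.82 to 5.89) and of MHC class II at 3.93 (4.69 to 4.81). WT replicate 1 was the highest in the score of thyroid, lung, kidney and liver genes at -2.09 (-2.88 to -2.75). WT replicate 4 was the lowest for Car9 at 25.9 CPM (70.7 to 81.6).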

How the results depend on the processing

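Counts of genes called, higher and lower in S1pr1_KO, were 561 and 394 with DESeq2, 3388 and 4449 with limma-voom and quality weights, 1 and 9 without the low-count filter, 1 and 22 with a CPM of at least 1 in 4 libraries, 0 and 33 with limma on log2(FPKM + 1), and 1 and 67 in the 8 libraries alone. The weight of S1pr1_KO replicate 3 in limma-voom was 0.282, and those of the other 7 libraries ran from 0.726 to 2.36. Leaving out 1 library at a time gave 0 to 486 higher and 0 to 844 lower, both maxima without S1pr1_KO replicate 3. RLE and upper-quartile factors, and leaving out milk and salivary genes, gave 0 calls by edgeR (smallest adjusted p 0.0565, 0.0587 and 0.055, with 4588, 4787 and 4634 genes at an unadjusted p under 0.05). Without pseudogenes and predicted genes and with the length slope as a covariate, both chosen after seeing the data, edgeR gave 0 calls, with smallest adjusted p-values of 0.24 and 0.285 and 2386 and 2247 genes at an unadjusted p under 0.05. Upper-quartile factors moved the median of all genes from 0.03 to 0.15. S1pr1 turned to 0.39 with limma-voom and 0.012 on log2(FPKM + 1) and ran from -0.49 to 0.12 when 1 library was left out. S1pr2 ran from -0.078 to 0.30 in the same way. S1pr3 turned to 0.076 with upper-quartile factors, 0.035 with the CPM filter, 0.36 with limma-voom, 0.13 on log2(FPKM + 1), 0.001862 without milk and salivary genes, 0.026 without pseudogenes and 0.076 with the length covariate, and ran from -0.23 to 0.30 with 1 library left out. The cause was not tested. Of 2076 values of 110 genes under 19 alternatives, 1887 kept direction and side of the threshold, 172 passed it only there, and 17 changed sign, all of the 3 receptors named. Prox1 and Lyve1 were not among the 110 genes, and Prox1 turned to 0.0041 with DESeq2 and with RLE factors. Medians of 24 of the 55 lists changed sign under some alternative. No paired analysis was possible because the labels give no replicate numbers that genotypes share. Library totals lay between 230.4 and 484, in units of 1e6 counts.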
